A study of Homo sapiens with 6 samples.

Results

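The 48 genes described here are neuronal and synaptic genes, chosen by name with earlier results of these data known. They are components of the neuronal cytoskeleton, neural adhesion molecules, the machinery of vesicle release, glutamate receptors and their scaffolds, neuronal RNA-binding proteins and a neurotrophin with its receptor. A probe set is the group of array probes that reports on one transcript, and 47 of the 48 genes had at least 1 whose platform annotation gave a single gene symbol, among 19775 such genes on the array. CADM2 had none and is not analysed here. The probe set with the highest mean deposited signal over the 6 arrays stood for each gene (after normalisation another was brighter for GRIA1, GRIA2 and DLG2, all under background), and 29 of the 47 genes passed the filter on dim genes and were tested.

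RNA was taken from early-passage U87-2M1 cells, an invasive derivative of the human glioma line U87 that had been recovered from an experimental lung metastasis assay in animals and then grown in culture. Cells of 3 miR-10b decoy samples had been transduced with a baculoviral vector carrying a decoy for the microRNA miR-10b, and cells of 3 control decoy samples with a baculoviral vector carrying a control decoy. All 6 samples were passage 4 cells kept in hypoxia, so both groups share the cell line, the vector type and the low oxygen, and cells without any vector are not part of the comparison. A microRNA decoy carries binding sites for a microRNA and draws it away from the messenger RNAs it represses. Whether the replicates came from separate cultures is not stated in the labels, and the p-values rest on a spread that may be technical.

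Neurons are set apart from glia by long processes stiffened by neurofilaments and microtubule-associated proteins, and by synapses. At the presynaptic side, vesicles dock at an active zone scaffold and fuse through SNARE proteins when synaptotagmin senses calcium. Across the cleft, neurexins bind neuroligins, and glutamate receptors are held in place by scaffolds of the postsynaptic density. In cells that are not neurons many of these genes are held silent by the repressor REST, which binds an element called RE1.

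The labelled cell type was set against marker genes. All 8 markers of mesenchymal glioma cells were above background on all 6 arrays, from VIM (vimentin) at a signal of 9932 ± 100.1 with the miR-10b decoy and 9937 ± 102 with the control decoy down to NES (nestin) at 372 ± 40.5 with the miR-10b decoy and 486 ± 32.6 with the control decoy (SD, n = 3 each). Of these 8, SPARC (log2 difference -0.63), NES (-0.38) and FN1 (-0.13) passed as lower and ANXA1 (0.18) passed as higher. Of 12 mature neuron markers, 8 were above background on no array, among them RBFOX3, which encodes the nuclear antigen NeuN, and STMN2, at 8.77 ± 4.72 with the miR-10b decoy and 1.87 ± 0.305 with the control decoy. The 4 that were above it on every array were TUBB3, GAD1, SNAP25 and SYT1, and TUBB3, a tubulin, stood at 3233 ± 85.6 with the miR-10b decoy and 3662 ± 87.4 with the control decoy. Of the 12, 5 are themselves among the 48 genes: SNAP25, SYT1, SYN1, SLC17A7 and STMN2. The neuron marker list summed to between 3910.4 and 4089 on miR-10b decoy arrays and between 4662 and 4831 on control arrays. Without those 5 it summed to between 3359 and 3537 on miR-10b decoy arrays and between 3784 and 3909 on control arrays. Nearly all of this sum is TUBB3, at 3180 to 3332 on miR-10b decoy arrays and 3564 to 3732 on control arrays. GAD1, the only other of these 7 above background, did not pass (log2 difference 0.12), so the sum reads 1 gene and not the list. The TUBB3 and FN1 probe sets carry a suffix by which the array maker marks probes that may also bind other sequences. SNAP25 (limma adjusted p = 4.3e-06) and TUBB3 (0.0080) passed as lower. Of other cell types, 3 of 7 astrocyte markers, 1 of 6 measured oligodendrocyte, 1 of 5 microglia and leukocyte, 2 of 5 endothelial and 1 of 5 epithelial markers were above background on all arrays. The brightest of each were GJA1, CSPG4, CSF1R, PECAM1 and KRT8. The gap junction protein GJA1 averaged 4761 with the miR-10b decoy and 4719 with the control decoy and did not pass. Of 4 tested astrocyte markers the glutamate transporters SLC1A2, at 67.7 with the miR-10b decoy and 42.2 with the control decoy (limma adjusted p = 0.023), and SLC1A3, at 94.0 with the miR-10b decoy and 55.2 with the control decoy (0.011), passed as higher. Of 3 tested endothelial markers PECAM1, at 106 with the miR-10b decoy and 142 with the control decoy (0.013), and the receptor TEK, at 64.7 with the miR-10b decoy and 97.7 with the control decoy (0.020), passed as lower. Of all tested genes 33.9% passed, 16.6% as higher and 17.3% as lower. The marker lists are too short to be set apart from these shares. The part of these markers in the results was not tested. The dimmest, S100B, OLIG1, PTPRC, CDH5 and KRT19, were above background on no array. The label "neuronal and synaptic genes" names what these genes are known for and not a neuronal identity of the cells. In bulk RNA, fewer cells of a type and less RNA per cell cannot be told apart.

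Signals below are quantile-normalised array signals in arbitrary units. A signal was called above background where it exceeded 31.3, the 95th percentile of the signals of 82 olfactory receptor genes. By this measure 20 members were above background on all 6 arrays, 7 on some arrays and 20 on none. The brightest was UCHL1, a deubiquitinating enzyme abundant in neurons, at the 99.0th percentile of all genes, followed by MAP1B, a microtubule-associated protein of growing axons, at the 98.5th percentile. BDNF, a neurotrophin, and the vesicle protein SYT11, the endoplasmic reticulum protein RTN1 and the active zone scaffold PCLO lay at percentiles from 86.1 to 87.3.

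**Figure D1:**
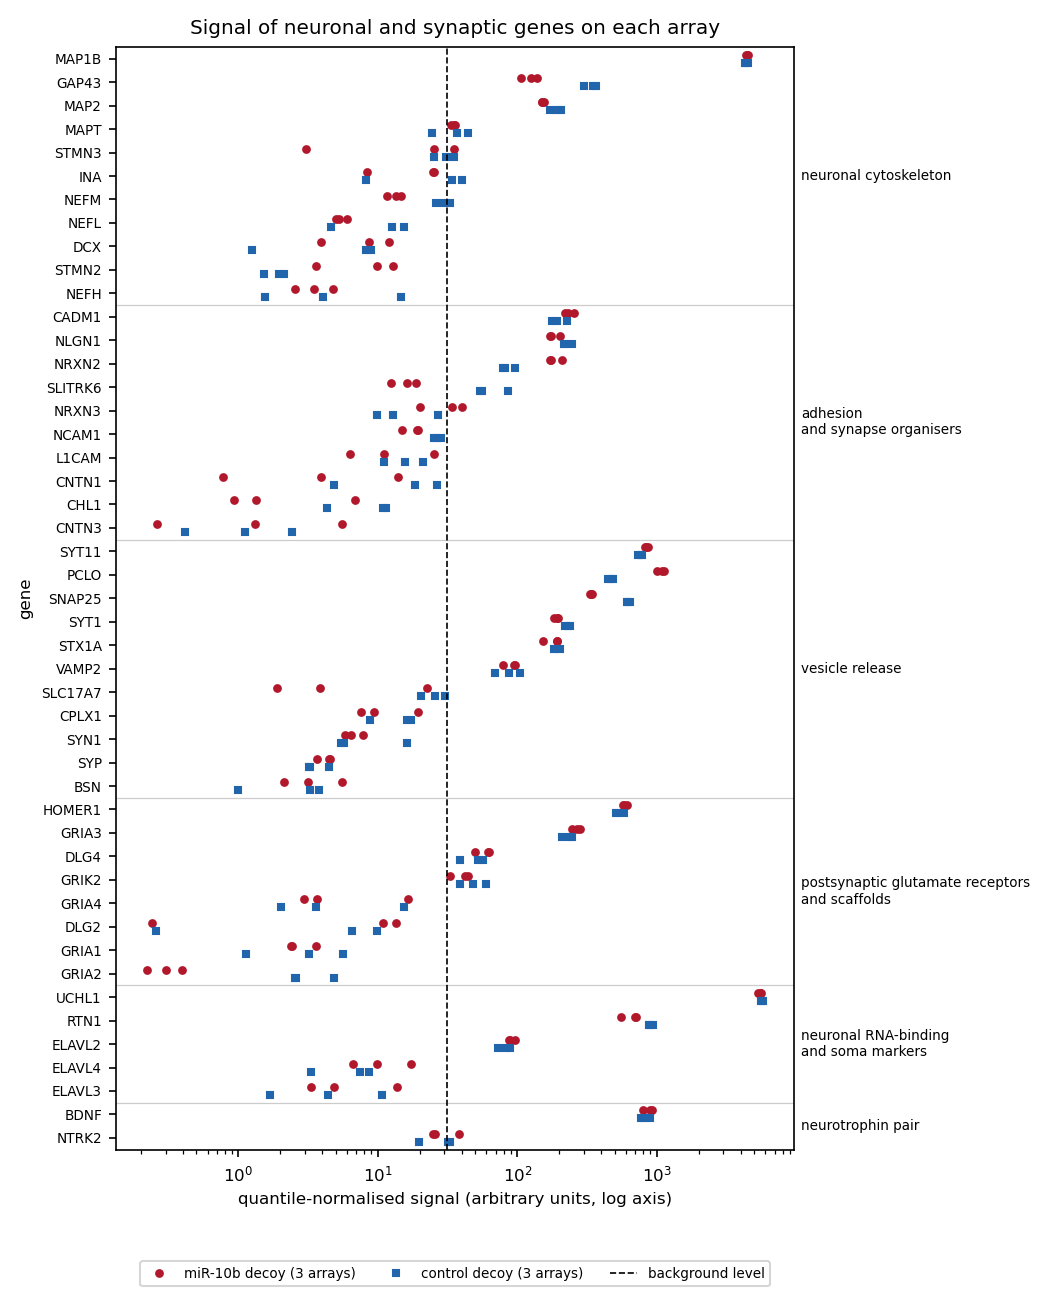
Quantile-normalised signal (arbitrary units, log axis) of the 47 genes on each array, grouped by role, with miR-10b decoy arrays as circles above and control decoy arrays as squares below each gene's line. The dashed line marks the background level of 31.3, and 20 genes lie to its right on all 6 arrays.

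The 20 members above background on no array included several that mark mature synapses. SYP (synaptophysin), a membrane protein of synaptic vesicles, had 3.64, 4.45 and 4.57 on the miR-10b decoy arrays and 3.25, 4.48 and 3.21 on the control arrays. SYN1 (synapsin I), which tethers vesicles to the cytoskeleton, had 7.86, 6.43 and 5.76 with the miR-10b decoy, against 5.44, 5.72 and 16.1 with the control decoy. BSN (bassoon), a relative of PCLO at the active zone, had 2.13, 5.54 and 3.17 with the miR-10b decoy, against 0.996, 3.78 and 3.24 with the control decoy. Every one of these values lies under the background level, and the arrays of the 2 groups overlap for each gene. The complexin CPLX1 and the vesicular glutamate transporter SLC17A7 complete the vesicle genes in this class.

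The remaining undetected members were NEFL and NEFH (light and heavy neurofilament subunits), DCX (doublecortin, a microtubule protein of migrating neurons) and STMN2 (a regulator of microtubule stability) among cytoskeletal genes, with signals from 1.26 to 15.5. Among adhesion molecules they were NCAM1, L1CAM, CHL1, CNTN1 and CNTN3, with signals from 0.261 to 28.2. They were also the AMPA receptor subunits GRIA1, GRIA2 and GRIA4 and the postsynaptic scaffold DLG2, from 0.222 to 16.5, and the RNA-binding proteins ELAVL3 and ELAVL4, from 1.68 to 17.2. These 20 genes are covered by 49 probe sets, and 0 of those exceeded the background level on any array. Of the 20, NCAM1 and SLC17A7 passed the looser filter on mean signal, which lay at 15.6, and neither passed the test. NCAM1 had 14.8, 19.5 and 19.0 with the miR-10b decoy, against 26.6, 28.2 and 25.4 with the control decoy (adjusted p = 0.222). SLC17A7 had 3.85, 1.89 and 22.6 with the miR-10b decoy, against 20.4, 30.3 and 25.8 with the control decoy (adjusted p = 0.066). Its groups overlap by miR-10b decoy replicate 3, without which SLC17A7 passed as lower (adjusted p = 0.0098), still with all arrays under background. Its mean of 9.46 with the miR-10b decoy lay under the filter, which it passed through its control arrays. The other SLC17A7 probe set, also under background, had the opposite sign (log2 difference 0.45), so no direction is given for SLC17A7.

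The stretch of DNA just before the transcription start was compared for the members found in a RefSeq promoter table (GRCh38.p14), 35 of the 48. The RE1 element is the site of the repressor REST. Its 2 conserved parts, TCAGCACC and GGACAG, were searched on both strands in the 250 bases before the start, alone and joined with any 2 bases between them, where the joined form contains both. Promoters of 3 members are shown. The undetected SYN1 was chosen because it holds the joined form. PCLO and GAP43 were chosen by their differences, as the largest rise and the largest fall among genes above background on all arrays. These promoters hold matches, as those of some members not shown also do. They are given 5′ to 3′ on the strand of the gene, with matches to either part, on either strand, in capitals. SYN1 lies at chrX:47619858-47620107 on the minus strand, PCLO at chr7:83162885-83163134 on the minus strand and GAP43 at chr3:115623260-115623509 on the plus strand.
SYN1: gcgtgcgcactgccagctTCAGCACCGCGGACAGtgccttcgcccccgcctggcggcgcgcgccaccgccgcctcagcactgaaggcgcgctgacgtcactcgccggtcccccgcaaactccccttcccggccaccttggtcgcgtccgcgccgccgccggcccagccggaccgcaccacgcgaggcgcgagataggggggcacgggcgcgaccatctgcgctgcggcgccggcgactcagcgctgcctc
PCLO: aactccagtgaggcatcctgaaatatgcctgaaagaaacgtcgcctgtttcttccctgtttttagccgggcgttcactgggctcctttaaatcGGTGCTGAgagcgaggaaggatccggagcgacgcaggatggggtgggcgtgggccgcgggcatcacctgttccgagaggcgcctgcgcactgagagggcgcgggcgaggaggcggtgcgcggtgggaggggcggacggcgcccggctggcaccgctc
GAP43: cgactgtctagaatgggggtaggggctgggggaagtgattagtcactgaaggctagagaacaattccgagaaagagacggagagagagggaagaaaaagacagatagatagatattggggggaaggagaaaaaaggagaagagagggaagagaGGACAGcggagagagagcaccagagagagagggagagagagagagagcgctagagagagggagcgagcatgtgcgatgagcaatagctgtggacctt

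SYN1 held the joined element, which occurred in 10 of 27305 promoter windows (0.0366%). PCLO held the left part alone, on the opposite strand. With SYN1, where it lies within the joined element, 2 of 35 members (5.71%) and 1.34% of all windows held this part. With 2 members no difference between these shares is read. GAP43 held the right part alone, which 17.1% of members and 17.1% of all windows held. Besides SYN1, the members BSN, INA, SYT1 and SLC17A7 held the right part too. A match is only a match of letters, and binding was not measured here.

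The comparison asks which of these transcripts differ in cells given the miR-10b decoy. Of the 29 tested members 2 were higher with the miR-10b decoy, 7 were lower and 20 did not pass (limma, Benjamini-Hochberg adjusted p under 0.05 over all 13842 tested genes). PCLO and NRXN2 were the higher ones, and GAP43, SLITRK6, SNAP25, RTN1, NEFM, MAP2 and NLGN1 were lower. These 9 genes are 31.0% of the tested members, whereas 33.9% of all tested genes passed, 16.6% higher and 17.3% lower. The members as a list were thus called about as often as genes in general. They and the further lists below were chosen with earlier results of these data known, so such shares describe the lists and test nothing about them. Their median log2 difference was -0.06, beside -0.02 over all tested genes. The split between directions moved with the scaling: over all genes 2299 were higher and 2398 lower here, against 1094 higher and 2561 lower on the signals as deposited, where the median of all genes lay at -0.14, and 2861 higher and 1740 lower after centring on the array median. Under those 2 scalings no called member changed its sign. The arrays of the groups did not overlap for 12 of the 29 members, or 41.4%, against 46.4% of all tested genes. In 3 members all miR-10b decoy arrays were higher and in 9 all were lower, where 22.4% and 24% of all tested genes were so. With per-gene variances and no moderation 2 members were higher and 6 lower, against 20.4% of all genes past the threshold in either direction.

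**Figure D2:**
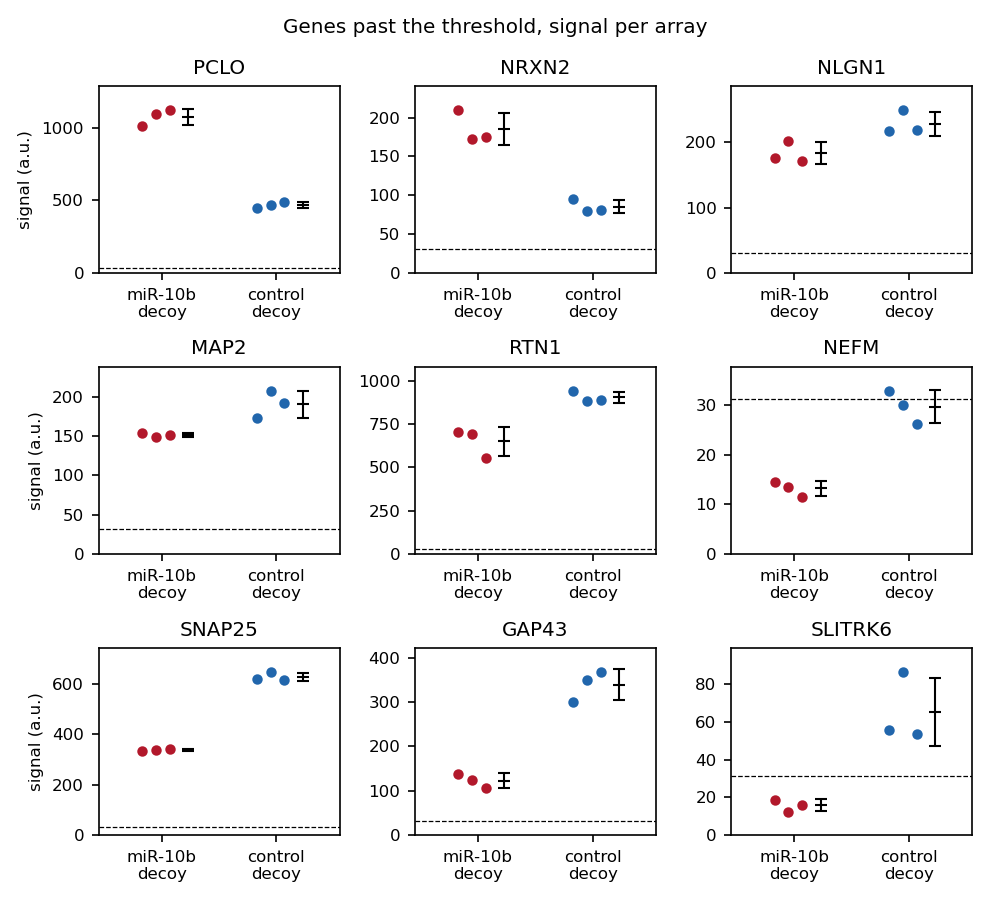
Quantile-normalised signal (arbitrary units, linear axis from 0) of the 9 members past the threshold on each of 3 miR-10b decoy arrays (left) and 3 control decoy arrays (right), with the mean ± SD beside the points and the background level dashed. PCLO and NRXN2 lie higher on all 3 miR-10b decoy arrays, the other 7 lie lower on all 3, and SLITRK6 and NEFM lie under the background level with the miR-10b decoy.

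Among cytoskeletal genes, GAP43, a membrane protein of growth cones that is made during axon growth and regeneration, fell. It had signals of 138, 125 and 106 on the miR-10b decoy arrays and 300.6, 350.9 and 367 on the control arrays. All miR-10b decoy arrays lie far under the lowest control array. GAP43 averaged 123 ± 16.2 with the miR-10b decoy and 339.6 ± 34.8 with the control decoy (SD, n = 3 each), a log2 difference of -1.42 (SE 0.12, limma adjusted p = 5.9e-06). A second, dimmer GAP43 probe set that was above background on 4 arrays had a log2 difference of -0.35 and did not pass (adjusted p = 0.274 over all probe sets). The remaining one lay under background, and averaging the 3 probe sets ended the call of GAP43 (log2 difference -0.54, adjusted p = 0.052).

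MAP2, which binds microtubules in dendrites, was lower by a small amount. Its signals were 155, 149 and 151 with the miR-10b decoy, against 173, 207 and 192 with the control decoy. The groups do not overlap, and the miR-10b decoy arrays lie close together. The log2 difference was -0.31 (SE 0.10, limma adjusted p = 0.035), and the call ended under 10 of 19 other settings, among them 5 of the 6 that leave out an array (adjusted p between 0.062 and 0.135).

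NEFM, the medium neurofilament subunit, was also lower, but at the edge of detection. It had 14.5, 13.6 and 11.6 with the miR-10b decoy, against 32.8, 30.01 and 26.2 with the control decoy, and control replicate 1 was the only array above background. Its mean with the miR-10b decoy, 13.2, lay under the filter level of 15.6. NEFM thus entered the test, and the count of 7 lower members, only through its control arrays. No fold is given for it, and its call (limma adjusted p = 0.033) ended in 5 of the 6 fits that leave out an array (adjusted p between 0.0502 and 0.105), the exception being miR-10b decoy replicate 1.

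The brightest cytoskeletal member, MAP1B, had 4359, 4441 and 4514 with the miR-10b decoy, against 4514, 4359 and 4293 with the control decoy. Its groups overlap, and the 95% confidence interval of its log2 difference ran from -0.07 to 0.11. MAPT, which encodes tau, an axonal microtubule protein, had 33.3, 35.3 and 35.6 with the miR-10b decoy, against 44.5, 24.4 and 37.2 with the control decoy, a wide overlap close to background. STMN3, a stathmin, had 25.2, 34.9 and 3.04 with the miR-10b decoy, against 35.1, 25.3 and 30.9 with the control decoy. Only miR-10b decoy replicate 3 stands apart there, and STMN3 did not pass (adjusted p = 0.313). INA, a neuronal intermediate filament, ranged from 8.42 to 25.2 with the miR-10b decoy and from 8.19 to 39.8 with the control decoy.

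Of the adhesion molecules and synapse organisers, NRXN2, a presynaptic neurexin, rose. It had signals of 209, 173 and 174 with the miR-10b decoy and 95.8, 79.4 and 81.5 with the control decoy. Each miR-10b decoy array lies well over each control array. The mean was 185 ± 20.6 with the miR-10b decoy and 85.6 ± 8.9 with the control decoy (SD, n = 3 each), and the log2 difference was 1.05 (SE 0.12, limma adjusted p = 7.2e-05), or 2.08-fold higher on the scale of signal plus 7. The other NRXN2 probe set was above background on all arrays too and gave 0.86 (adjusted p = 0.0022 over all probe sets).

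Its binding partner across the synapse, NLGN1, a neuroligin that organises postsynaptic sites, went the other way. NLGN1 had 175, 202 and 171 with the miR-10b decoy, against 216, 249 and 218 with the control decoy, and the groups do not overlap. The log2 difference was -0.31 (SE 0.10, limma adjusted p = 0.038). A second NLGN1 probe set gave -0.51 (adjusted p = 0.018 over all probe sets), while the call of the first ended under 10 of 19 other settings, including 5 of the 6 fits that leave out an array (adjusted p between 0.052 and 0.150).

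SLITRK6, a transmembrane protein with leucine-rich repeats that promotes neurite outgrowth and synapse formation in the inner ear of mice, was lower. It had 18.7, 12.3 and 16.2 with the miR-10b decoy, against 55.8, 86.2 and 53.7 with the control decoy. All 3 control arrays were above background and all 3 miR-10b decoy arrays were under it, so SLITRK6 is given as at least 1.85-fold lower, the control mean against the background level (limma adjusted p = 3.7e-04). The 2 other SLITRK6 probe sets were also under background on all 3 miR-10b decoy arrays. One was above it on 3 control arrays and the other on 1, and no size is given for either.

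The other tested adhesion members did not pass. CADM1, a synaptic cell adhesion molecule also found in epithelia, had 232, 219 and 253 with the miR-10b decoy, against 177, 191 and 226 with the control decoy (log2 difference 0.24, adjusted p = 0.111). The groups overlap by control replicate 3, and without that array CADM1 passed (adjusted p = 0.038). NRXN3, another neurexin, had 20.1, 34.0 and 39.9 with the miR-10b decoy, against 12.9, 9.93 and 27.2 with the control decoy. It rests on 2 arrays above background, both with the miR-10b decoy, and passed only without control replicate 3 (adjusted p = 0.047).

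The vesicle release genes held the clearest rise and one of the clearest falls among the members. PCLO (piccolo), a very large scaffold protein of the presynaptic active zone, had 1012, 1095 and 1121 on the miR-10b decoy arrays and 449.5, 472 and 487 on the control arrays. The lowest miR-10b decoy array lies far above the highest control array. PCLO averaged 1076 ± 57.2 with the miR-10b decoy and 469.6 ± 19.0 with the control decoy (SD, n = 3 each), a log2 difference of 1.18 (SE 0.07, limma adjusted p = 5.3e-07), or 2.27-fold higher. A second PCLO probe set had 386, 367 and 355 with the miR-10b decoy, against 162, 155 and 119.96 with the control decoy, a log2 difference of 1.31. The remaining one lay under background on all arrays.

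SNAP25, the plasma membrane SNARE protein that joins syntaxin and VAMP to fuse vesicles, fell. It had 335, 339 and 341 with the miR-10b decoy and 621, 646 and 616 with the control decoy. The arrays of each group lie close together and the groups are far apart. The mean was 338 ± 3.18 with the miR-10b decoy and 628 ± 16.2 with the control decoy (SD, n = 3 each), a log2 difference of -0.88 (SE 0.07, limma adjusted p = 4.3e-06), or 1.84-fold lower. Of its other probe sets, one gave -0.70 (adjusted p = 8.8e-04 over all probe sets). The third had 114, 122 and 88.9 with the miR-10b decoy, against 118, 116 and 121 with the control decoy, overlapped between groups and did not pass (-0.13, adjusted p = 0.523). The chosen SNAP25, NRXN2 and SLITRK6 probe sets carry a suffix by which the maker of the array marks probes shared between several transcripts.

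The SNARE partners of SNAP25 did not pass. STX1A (syntaxin 1A), the other SNARE of the plasma membrane, had 193, 193 and 152 with the miR-10b decoy, against 203, 188 and 184 with the control decoy. VAMP2, the SNARE of the vesicle, had 96.4, 95.3 and 78.4 with the miR-10b decoy, against 105, 87.4 and 69.2 with the control decoy. Both genes overlap between the groups, with log2 differences of -0.10 (95% confidence interval -0.35 to 0.15) for STX1A and 0.06 (-0.30 to 0.41) for VAMP2. A dimmer VAMP2 probe set did pass, at 43.1, 45.1 and 67.9 with the miR-10b decoy, against 73.5, 75.0 and 82.5 with the control decoy (-0.53, adjusted p = 0.047), so the VAMP2 probe sets disagreed.

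The calcium sensor of fast release, SYT1, lay just outside the threshold. It had 193, 182 and 197 with the miR-10b decoy, against 229.7, 238 and 218 with the control decoy, with no overlap (log2 difference -0.25, SE 0.09, adjusted p = 0.0502). A second SYT1 probe set, above background on all arrays, overlapped between groups (-0.10, limma adjusted p = 0.616 over all probe sets). SYT11, a synaptotagmin that does not bind calcium, had 819, 832 and 872 with the miR-10b decoy, against 737, 782 and 765 with the control decoy. The SYT11 groups did not overlap (0.14, SE 0.06, adjusted p = 0.102). These 2 genes and NCAM1 were the tested members whose groups did not overlap and which did not pass. Among untested members, the groups of GRIA2 and STMN2 did not overlap, at signals under background.

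**Figure D3:**
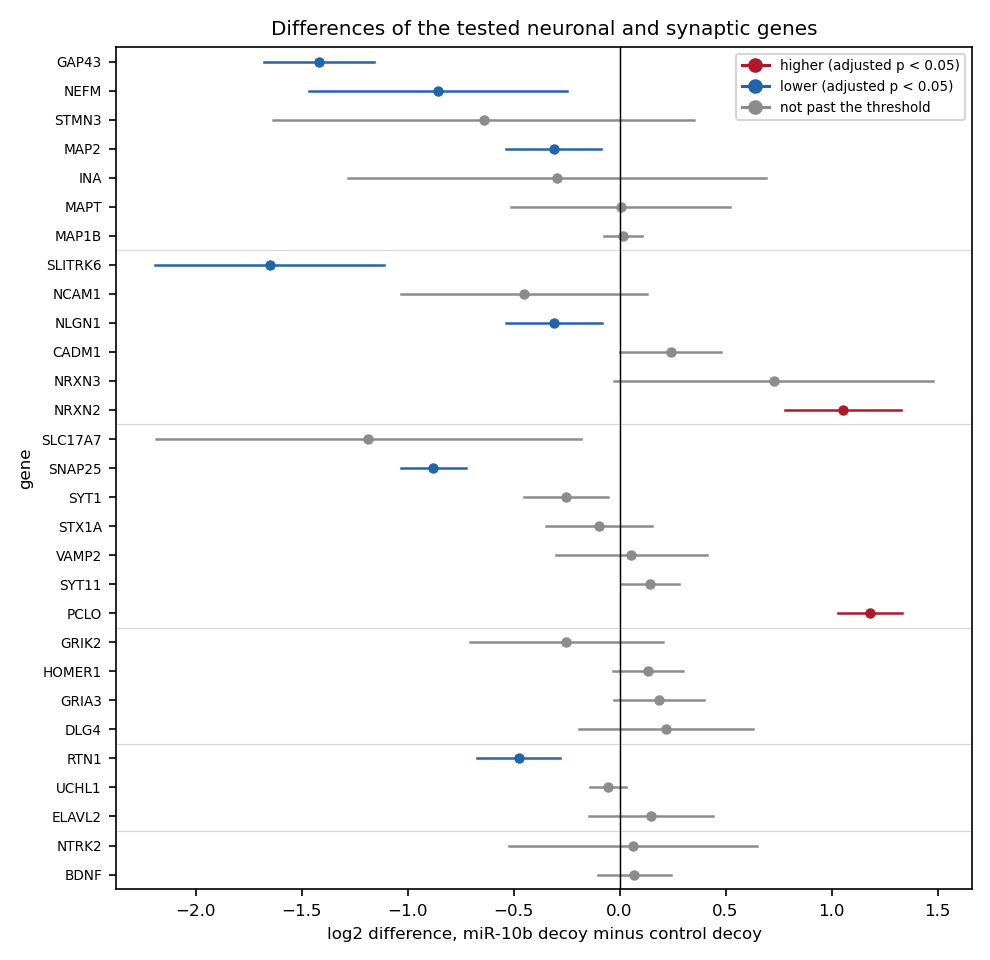
Log2 difference (miR-10b decoy minus control decoy) of the 29 tested members with its 95% confidence interval, grouped by role in the order cytoskeleton, adhesion, vesicle release, postsynaptic genes, RNA-binding and soma markers, neurotrophin pair. The 2 members past the threshold upward stand at 1.05 and 1.18, of the 7 past it downward the 5 above background on all arrays run from -1.42 to -0.31, SLITRK6 and NEFM being drawn at fitted values that rest on miR-10b decoy arrays under background, and the intervals of the 4 postsynaptic and 2 neurotrophin genes all cross 0.

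On the postsynaptic side 0 of 4 tested members passed limma's test, where 33.9% of all tested genes did. At an unadjusted p under 0.05 the count was 0 as well, beside 43.4% of all tested genes, and 4 genes are too few to read a difference from. HOMER1, which links metabotropic glutamate receptors to intracellular calcium stores, had 572, 578 and 609.8 with the miR-10b decoy, against 579, 508 and 516 with the control decoy. GRIA3, an AMPA receptor subunit and the only measured one of its family above background, had 282, 245 and 266 with the miR-10b decoy, against 209, 247 and 239.5 with the control decoy. DLG4 (PSD-95), the main scaffold of excitatory synapses, had 63.1, 49.9 and 61.7 with the miR-10b decoy, against 39.0, 57.0 and 51.9 with the control decoy. The groups overlap in each of these genes, and the log2 differences were 0.13, 0.19 and 0.22. The kainate receptor subunit GRIK2 had -0.25 (95% confidence interval -0.71 to 0.20). The next GRIA3 probe set above background went the other way, at -0.48 (adjusted p = 0.088), so no direction is given for GRIA3.

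RTN1 (reticulon 1), a membrane protein of the endoplasmic reticulum in neurons and neuroendocrine cells, was lower. It had 707, 693 and 556 with the miR-10b decoy and 939, 886 and 888 with the control decoy. The groups do not overlap, and miR-10b decoy replicate 3 is the lowest. The log2 difference of RTN1 was -0.48 (SE 0.09, limma adjusted p = 0.0016), and the second RTN1 probe set gave -0.51 (adjusted p = 0.0014 over all probe sets). UCHL1 had 5499.9, 5593 and 5311 with the miR-10b decoy, against 5569.8, 5679.8 and 5799 with the control decoy (log2 difference -0.06, 95% confidence interval -0.14 to 0.03). ELAVL2, an RNA-binding protein that stabilises messenger RNAs in neurons, had 96.9, 89.0 and 86.5 with the miR-10b decoy, against 82.7, 88.5 and 73.0 with the control decoy, and the groups overlap (0.15, adjusted p = 0.431). Its relative ELAVL4 had 9.87, 6.63 and 17.2 with the miR-10b decoy, against 8.57, 7.44 and 3.29 with the control decoy, all under background and not tested.

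BDNF, which supports neuron survival and synaptic strength, had 899, 795 and 920.4 with the miR-10b decoy, against 769, 819.9 and 899.7 with the control decoy. Its groups overlap almost fully (log2 difference 0.07, 95% confidence interval -0.10 to 0.24). Its receptor NTRK2 (TrkB) had 24.8, 38.3 and 25.8 with the miR-10b decoy, against 32.9, 19.7 and 31.8 with the control decoy, and was above background on 3 of 6 arrays.

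Over the 13 members that were above background on all arrays and did not pass, log2 differences lay between -0.25 and 0.24, and their 95% confidence intervals between -0.71 and 0.63. Within single role groups the called genes went both ways: NRXN2 against NLGN1 and SLITRK6 among adhesion molecules, and PCLO against SNAP25 among vesicle genes. The 3 called cytoskeletal genes were all lower. Of these, NEFM was above background on 1 array only, and MAP2 lost its call under 10 of 19 other settings.

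Second probe sets allow a check within the array. Among members represented by a probe set above background on all 6 arrays, 14 genes had 18 further probe sets that met the same condition. The 6 of called members all had the sign of the chosen probe set, and 5 of them passed in the same direction. Of the 12 belonging to members that did not pass, 8 had the same sign as the chosen one and 2 passed themselves, 1 for CADM1 (higher) and 1 for VAMP2 (lower).

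**Figure D4:**
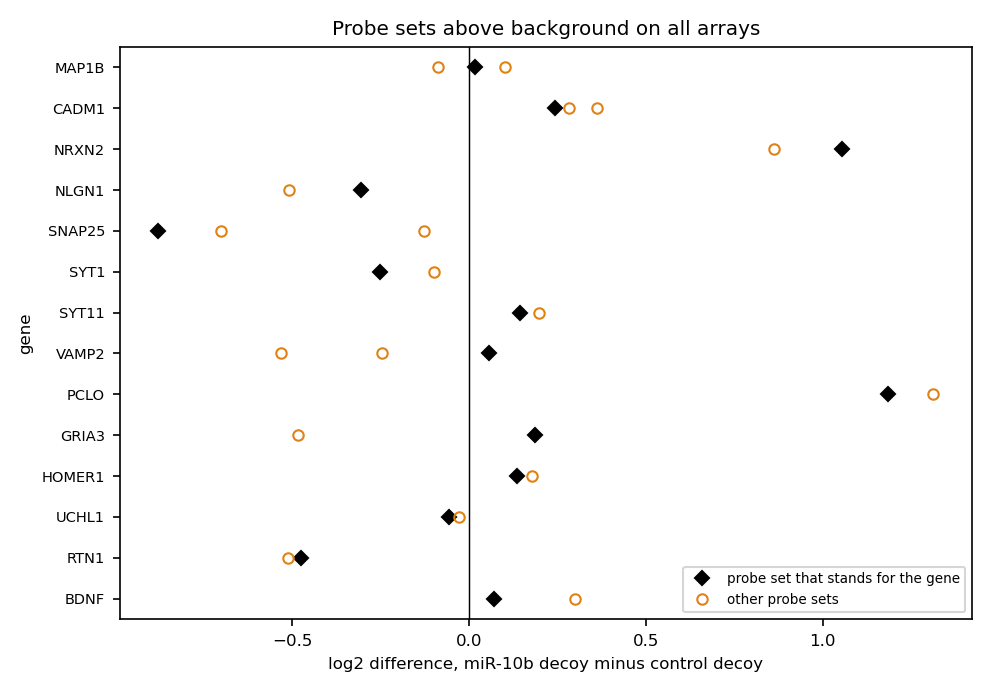
Log2 difference (miR-10b decoy minus control decoy) of each probe set above background on all 6 arrays, for the 14 genes with more than one. The chosen probe sets (diamonds) and the others (open circles) lie on one side of 0 for PCLO, NRXN2, SNAP25, RTN1 and NLGN1 and on both sides for MAP1B, VAMP2 and GRIA3.

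Other neuronal genes outside the 48 were grouped in 8 lists of 197 genes, of which 107 were tested. Of these, 12 were higher and 23 were lower, 32.7% in all, again close to the 33.9% of all tested genes, and their median log2 difference was -0.02. Of 14 genes of REST and its corepressors 1 was higher and 2 lower, the phosphatase CTDSPL at 0.57 and the histone-modifying enzymes HDAC1 at -0.25 and EHMT1 at -0.30. REST itself, read by its brightest probe set, had 248, 288 and 294 with the miR-10b decoy, against 279, 267 and 266 with the control decoy. The REST groups overlap (log2 difference 0.03, adjusted p = 0.851). Of 9 tested genes of neuroendocrine secretory granules 1 was higher and 5 were lower. Of all tested genes 16.6% were higher and 17.3% lower, and with 9 genes no difference from these shares is read. The granule priming factor CADPS had 187 ± 4.59 with the miR-10b decoy and 375 ± 9.56 with the control decoy (SD, n = 3 each; log2 difference -0.98, limma adjusted p = 5.9e-06). The granule proteins CPE and PTPRN2 were lower at -0.65 and -0.55.

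Beside the list counts that follow stand the shares of all tested genes, 16.6% higher and 17.3% lower, and the lists are too short to be set apart from them. In the further release machinery 4 of 27 were higher and 7 lower. The vesicle SNARE VAMP1 was lower at -0.58, while the docking GTPase RAB27B was higher at 0.52 and the broadly used syntaxin STX4 at 0.57, though with the mean of all its probe sets STX4 had -0.08. Among other neural adhesion genes 1 of 17 was higher and 3 lower. The teneurin TENM1, a presynaptic partner of latrophilins, averaged 312 ± 31.8 with the miR-10b decoy and 659 ± 7.55 with the control decoy, a log2 difference of -1.07 (limma adjusted p = 4.1e-06). FLRT2, another latrophilin ligand, was higher at 0.90 and neurofascin (NFASC) was lower at -0.29. In other neuronal cytoskeleton genes 2 of 17 were higher and 4 lower, with the growth cone protein DPYSL3 at -0.87, the microtubule destabiliser STMN1 at -0.62 and the doublecortin-like kinase DCLK1 at 0.76. Other synaptic receptors and scaffolds gave 1 higher (DLGAP4, 0.37) and 1 lower (GRM5, under background on all arrays) of 12. Neuronal transcription factors gave 2 higher of 7, PAX6 at 0.61 and LHX2, above background on 1 array only. The mean of LHX2 with the control decoy, 8.10, and that of GRM5 with the miR-10b decoy, 8.57, lay under the filter level of 15.6. Each thus entered the test, and the counts of 12 higher and 23 lower genes, only through its brighter group. Neurotrophins and their receptors gave 1 lower of 4, the ligand ARTN at -0.78, whose probe set carries the same suffix as that of TUBB3.

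**Figure D5:**
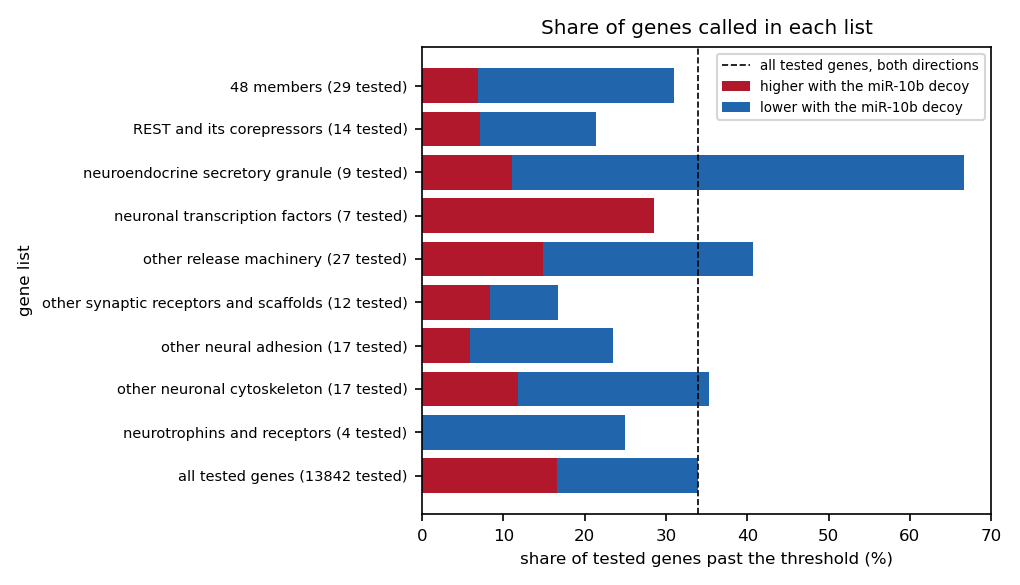
Share (%) of tested genes past the threshold in the 48 members, in each of 8 lists of other neuronal genes and in all tested genes, split by direction of the difference. The members reach 31.0%, the dashed line for all tested genes lies at 33.9%, and the secretory granule list, with 9 tested genes, reaches furthest beyond it.

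Control replicate 3 was brighter as deposited, with a mean signal after trimming of 192, against 155 to 163 on the miR-10b decoy arrays and 159 to 161 on the other control arrays, which is why the arrays were quantile-normalised. Without control replicate 3, 4 members were higher and 4 lower of 30 tested, where 30.1% of all tested genes passed, 2158 higher and 2002 lower. SLITRK6, SNAP25, GAP43 and RTN1 remained lower, and CADM1 and NRXN3 joined PCLO and NRXN2. The ratio of 3′ to 5′ actin probe sets, which reads RNA quality, ran from 7.36 to 10.6 on the miR-10b decoy arrays and from 5.27 to 6.22 on the control arrays, and that of GAPDH from 0.934 to 0.948 on the miR-10b decoy arrays and from 0.931 to 0.967 on the control arrays. The part of the actin ratio in the differences above was not tested. With 3 arrays a group, precision is limited by their number.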

How the data were processed

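The deposited values are linear signal intensities for 54675 probe sets on 6 arrays, made by the authors with MAS5 per the submitters' processing notes. The software version and the scaling target are not given in the material used. Per the labels' protocols, 0.25 µg of RNA went into each biotin labelling. Probe sets with 1 gene symbol numbered 41097, with several 1801 and with none 11777, and 62 control probe sets were left out of the tests. RefSeq identifiers matched for 41037, and 0 symbols needed an update.

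Signals were quantile-normalised over all probe sets and turned into log2(signal + 7), so folds of dim genes are understated. Genes with a mean signal under 15.6, the 30th percentile, were left out. The 13842 others were fitted with limma (version 3.58.1, R 4.3.3; lmFit and eBayes, trend on). Tests were two-sided, p-values were adjusted by Benjamini-Hochberg and 0.05 was the threshold. The prior had 7.67 and the residuals 4 degrees of freedom.

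The members and lists were chosen with earlier results of these data known. By rule, called members got their value on every array, as did up to 3 others per role by highest mean signal. Further members were given by ranges and counts; values of SYP, SYN1, BSN, SLC17A7 and VAMP2 were added after they had been seen. Each further list gave up to 3 called genes by smallest p, and each marker list its brightest and dimmest gene; further marker genes past the threshold were named after their values were seen. A simulation with 13842 genes held only 200 with a planted change. Recovery was 37.3% for a planted 1.5-fold change, 71.6% for 2-fold and 75.8% for 3-fold, and 0.806% of the calls were false. In the measured data 33.9% of all tested genes passed, a far larger share than was planted. The simulated rates are therefore not read as the power or the error rate of the tests reported here. No shared deviation of same-numbered arrays was seen: their correlations lay between -0.03 and 0.03, and those of differently numbered arrays between -0.03 and 0.04. Whether same-numbered samples were handled together cannot be told from these values.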

Additional observations from a re-analysis of the deposited data

How the results depend on the processing

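Across 19 other settings PCLO and NRXN2 stayed higher and SNAP25 lower, and SLITRK6 stayed lower in all 18 that tested it. GAP43 lost its call only when its probe sets were averaged and RTN1 only without variance moderation (adjusted p = 0.059). Among members, 7 that did not pass did so under some setting: SYT1, CADM1, SYT11, HOMER1, NCAM1, NRXN3 and SLC17A7. No member's call changed sign. The 2 higher and 7 lower members became 5 and 5 after centring on the array median and 2 and 4 with the mean of all probe sets. Leaving out 1 array gave 2 to 4 higher and 4 to 5 lower of 28 to 30 tested members, where 26.9% to 30.1% of all tested genes passed. Of all genes, 2299 were higher and 2398 lower, against 1094 higher and 2561 lower as deposited, 2861 and 1740 after centring, 1479 and 1566 with the mean of all probe sets and 1453 and 1377 without variance moderation. The 12 higher and 23 lower other neuronal genes became 5 and 14 with the mean of all probe sets, and 7 were higher without moderation. STX4 turned to -0.078 when its probe sets were averaged. The causes of these shifts were not tested. With the replicate number as a replicate block, 2 members were higher and 5 lower, MAP2 (adjusted p = 0.051) and NEFM (adjusted p = 0.053) no longer passing. In that fit 32.9% of all tested genes passed. Detection calls were not used here, so the background level rests on 82 olfactory receptor genes, and 20 members under it carry no information on direction.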
